A study of Mus musculus with 5 samples.

Results

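A set of 10 genes of epithelial defence that respond to gut microbes were followed across the small intestine of 5 mice, each of them present among the 19198 genes of the deposited count table. They were taken by symbol: Duox2, Duoxa2, Nos2, Lcn2, Saa1, Saa2, Saa3, Slc6a14, Pigr and Lypd8. The study asked what targeting the M4 muscarinic acetylcholine receptor in Math1-expressing cells does to gene expression in this tissue. The Cre-negative group held 3 mAChR4 fl/fl mice and the Cre-positive group 2 mAChR4 fl/fl littermates with the Math1Cre*PR transgene, so both groups carried the floxed receptor gene. Every mouse was gavaged with RU486, the ligand that switches this Cre on, at 10 mg/kg a day for 4 days. Math1 (Atoh1) marks the secretory cells of the gut epithelium. No Cre-positive mouse without the floxed gene was included, so Cre activity and receptor loss cannot be told apart. The design describes the tissue as whole small intestine, and the labels do not give the ages of the mice or say how much of its length each RNA sample represents. In RNA from bulk tissue such as this, fewer cells of a type and less RNA per cell cannot be told apart.

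The gut epithelium answers bacteria with a set of inducible products. DUOX2 is an oxidase of the apical membrane that releases hydrogen peroxide, and it needs its maturation factor DUOXA2 to leave the endoplasmic reticulum. NOS2 makes nitric oxide, lipocalin 2 (Lcn2) captures bacterial siderophores, and the serum amyloid A proteins bind retinol and shape lymphocyte responses to bacteria attached to the ileum. SLC6A14 imports neutral and basic amino acids, PIGR carries IgA and IgM across the epithelium into the lumen, and LYPD8 binds flagellated bacteria and holds them off the epithelial surface. Signals from Toll-like receptors, from interleukin 22 through STAT3 and from interleukin 17 are known to raise many of these genes.

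The start of the coding sequence is shown for Saa1 and Saa2 because the counts of these neighbours depend on how reads of near-identical copies were shared out. The lines give coding bases 1 to 150 from the GENCODE M21 transcripts, 5′ to 3′, and capitals in Saa2 mark bases that differ from Saa1.
Saa1: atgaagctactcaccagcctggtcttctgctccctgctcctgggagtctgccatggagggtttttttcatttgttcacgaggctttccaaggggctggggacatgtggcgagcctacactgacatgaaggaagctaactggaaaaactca
Saa2: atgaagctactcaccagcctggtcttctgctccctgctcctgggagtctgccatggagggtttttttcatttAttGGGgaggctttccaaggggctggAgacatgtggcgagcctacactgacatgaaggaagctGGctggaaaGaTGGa
Of these 150 bases 11 differed, and over the whole 369 coding bases 18 did, an identity of 95.1%. Saa3 shared 74.3% of aligned coding positions with Saa1. Of all runs of 50 bases in the Saa1 transcript, 13.2% also occurred in the Saa2 transcript and 1.61% in that of Saa3. Saa1 and Saa2 face away from each other on chromosome 7 with 8809 bases between their starts.

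Bases ahead of the start sites are shown for the Saa genes, because they hold the same short motif, and for Duoxa2, because it shares its upstream stretch with Duox2. They come from RefSeq promoters on GRCm38.p6 (250 bases before to 50 after a gene's start), limited here to bases outside annotated exons, and read along the strand of the gene. In the Saa lines capitals mark TTGCNNAA, a C/EBP-type motif, on either strand.
Saa1, chr7:46742981-46743230, minus strand: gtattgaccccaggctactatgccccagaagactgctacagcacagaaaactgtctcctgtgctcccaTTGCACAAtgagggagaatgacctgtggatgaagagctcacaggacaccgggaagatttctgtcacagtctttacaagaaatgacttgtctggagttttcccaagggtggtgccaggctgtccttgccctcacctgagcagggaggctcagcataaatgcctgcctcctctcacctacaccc
Saa2, chr7:46751583-46751789, plus strand: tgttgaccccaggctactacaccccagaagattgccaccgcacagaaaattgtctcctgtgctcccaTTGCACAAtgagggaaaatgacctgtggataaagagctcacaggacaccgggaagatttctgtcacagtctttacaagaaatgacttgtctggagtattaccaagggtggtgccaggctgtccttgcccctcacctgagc
Saa3, chr7:46715701-46715926, minus strand: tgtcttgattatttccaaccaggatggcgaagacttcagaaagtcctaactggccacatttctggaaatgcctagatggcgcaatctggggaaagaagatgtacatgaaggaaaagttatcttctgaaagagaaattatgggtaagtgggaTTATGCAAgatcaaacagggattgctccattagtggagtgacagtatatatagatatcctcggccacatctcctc
The motif occurred in 4 of the 9 members with a RefSeq promoter entry (Lcn2, Saa1, Saa2 and Saa3), searched over all 300 bases on both strands, and in 10.8% of all 32851 promoters of that length. TTCNNNGAA, a STAT-type motif, occurred in Pigr alone among the 9 and in 8.3% of all promoters. The interferon response element consensus occurred in Saa3 alone and in 3.44% of all. The NF-kB consensus occurred in 0 of the 9 and in 4.51% of all, which says only that these letters were not in these windows. Such matches are descriptions of the sequence, not shown to be binding sites. In the Duoxa2 line capitals mark TATAAA, which occurred in Duoxa2 alone among the 9 and in 13.6% of all promoters.
Duoxa2, chr2:122298650-122298899, plus strand: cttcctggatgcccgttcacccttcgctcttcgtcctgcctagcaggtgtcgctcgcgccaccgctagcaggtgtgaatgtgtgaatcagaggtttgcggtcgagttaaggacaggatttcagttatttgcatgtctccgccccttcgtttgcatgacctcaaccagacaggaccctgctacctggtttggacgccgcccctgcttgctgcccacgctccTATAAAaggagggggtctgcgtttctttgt
This stretch lies within the 450 bases between the annotated starts of Duox2 and Duoxa2, which are transcribed in opposite directions. Nos2 had no entry in the promoter table.

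No member passed the test between Cre-positive and Cre-negative intestine with all 5 mice, and most of them varied severalfold between mice of the same genotype. With 3 mice against 2 the intervals of the folds are wide, so these data do not show that the members are equal between genotypes. Values are CPM, each count divided by the library's total after TMM scaling (a factor that allows for differences in composition) and put on a common scale. Libraries held between 4681113 and 6618213 estimated counts. Chrm4, the targeted gene, had 4, 20 and 4 counts in Cre-negative 1, 2 and 3, compared with 13 and 5 in Cre-positive 1 and 2, too few in whole tissue to check the genotype labels. The quasi-likelihood test of edgeR was run on 14352 genes, of which 0 passed an adjusted p of 0.05 (0% of genes), and 0 of the 10 members did. At an unadjusted p under 0.05 there were 485 genes, 3.38% of those tested, and 1 member, Slc6a14. DESeq2 called 24 genes (0.155%) and limma-voom 0, neither with a member among them. The CPM of the groups overlapped for all 10 members, while the groups did not overlap for 18% of all genes tested (7.89% higher and 10.2% lower in Cre-positive mice). The filter on low counts was passed by 9 members and not by Saa2.

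**Figure D1:**
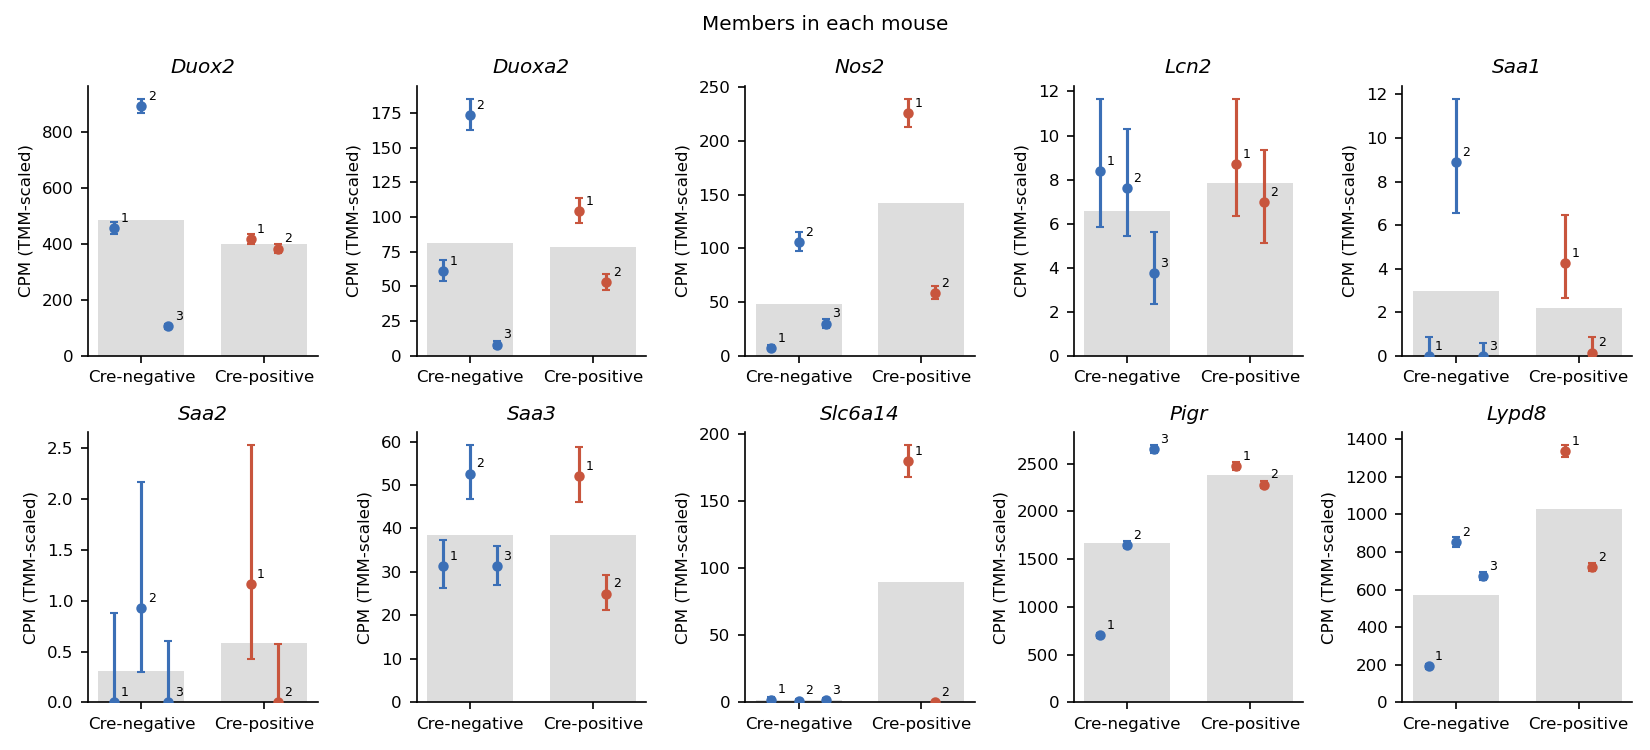
CPM (vertical axes, linear from 0) of each member in 3 Cre-negative (blue) and 2 Cre-positive (red) mice, numbered by mouse. Grey bars are group means and error bars are exact Poisson 95% intervals that cover counting error only. Slc6a14 stands at 180 CPM in Cre-positive 1 and at 2.16 CPM or less elsewhere, and the points of both groups overlap in every panel.

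Duox2, the peroxide-producing oxidase (ENSMUSG00000068452.8, chr2:122279247-122298449, minus strand), was highest and lowest in Cre-negative mice. It stood at 456, 891 and 105 CPM in Cre-negative 1, 2 and 3 and at 417 and 382 CPM in Cre-positive 1 and 2. Both Cre-positive mice thus lay inside the 8.45-fold range of the Cre-negative mice. The group means were 484 ± 394 CPM (SD, n = 3) and 400 ± 24.4 CPM (SD, n = 2), and the log2 fold change (positive where Cre-positive mice were higher) was -0.28 ± 0.76 (SE; edgeR adjusted p = 0.981). The 95% interval of the fold ran from 0.234 to 2.91. Duoxa2, the maturation factor (ENSMUSG00000027225.7, chr2:122298900-122302885, plus strand), followed the same order at its extremes. It stood at 61.1, 174 and 8.15 CPM in Cre-negative 1, 2 and 3 and at 104 and 53.0 CPM in Cre-positive 1 and 2. Again Cre-negative 2 was highest and Cre-negative 3 lowest, here 21.3-fold apart, and the log2 fold change was -0.04 ± 1.07 (edgeR adjusted p = 0.997). Per kilobase of transcript, Duox2 averaged 73.7 and Duoxa2 50.3 CPM over the 5 mice.

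Duoxa2 moved over a wider range than Duox2. For every 100 Duox2 counts there were 13.4, 19.5 and 7.73 Duoxa2 counts in Cre-negative 1, 2 and 3, compared with 25.02 and 13.9 in Cre-positive 1 and 2. The highest ratio was therefore in Cre-positive 1, which did not have the most Duox2. Exons of Duoxa2 overlap Duoxa1 on the opposite strand, and no source used here states whether strand was used in counting. Duoxa1, the partner of the related oxidase DUOX1, held 1.68, 5.37 and 0.815 CPM in the Cre-negative and 7.35 and 1.87 CPM in the Cre-positive mice, far below Duoxa2. Deposited counts of Duox2 and Duoxa2 were not whole in 5 of 5 libraries.

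Nos2, the inducible nitric oxide synthase (ENSMUSG00000020826.8, chr11:78920787-78960254, plus strand), varied 30.4-fold between mice. It stood at 7.43, 106 and 30.1 CPM in Cre-negative 1, 2 and 3 and at 226 and 58.8 CPM in Cre-positive 1 and 2. Cre-positive 1 was highest, but Cre-negative 2 lay above Cre-positive 2. The log2 fold change was 1.56 ± 1.05 (edgeR adjusted p = 0.977; 95% interval of the fold 0.498 to 17.6), and it was 0.31 without Cre-positive 1 and 2.90 without Cre-negative 2. With the epithelial score, the mean log2 CPM of 15 epithelial markers, as a covariate it was 0.062, and with a regional score of distal minus proximal markers it was 0.71. Macrophages are another known source of Nos2. The summed level of 13 macrophage and dendritic cell markers was 248, 150 and 162 CPM in Cre-negative 1, 2 and 3 and 265 and 177 CPM in Cre-positive 1 and 2. Cre-negative 1 was thus next to highest for these markers and lowest for Nos2; the part of macrophages in the Nos2 values was not tested.

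Saa1 and Saa2, the acute-phase amyloid genes that attached bacteria induce in the ileum, were detected in few mice. Saa1 (ENSMUSG00000074115.5, chr7:46740497-46742980, minus strand) had 0, 48 and 0 counts in Cre-negative 1, 2 and 3, compared with 22 and 1 in Cre-positive 1 and 2. Saa2 (ENSMUSG00000057465.5, chr7:46751790-46754313, plus strand) had 0, 5 and 0 counts in the Cre-negative and 6 and 0 in the Cre-positive mice. Cre-negative 2 and Cre-positive 1 thus held nearly all counts of this pair, 1 mouse of each genotype. A count of 0 allows up to 0.719 CPM for Cre-negative 1, 0.489 CPM for Cre-negative 3 and 0.466 CPM for Cre-positive 2. In Cre-negative 2 the deposited values were 47.9 for Saa1 and 5.08 for Saa2, neither whole but summing to 53.0, and the split between these genes, whose near-identical coding sequences are shown above, is uncertain. Together the pair came to 9.82 CPM for Cre-negative 2, 5.42 CPM for Cre-positive 1 and 0.155 CPM for Cre-positive 2. The log2 fold change was -0.49 ± 1.90 for Saa1 (edgeR adjusted p = 0.982), 0.79 ± 1.71 for Saa2 in a fit without a filter (edgeR adjusted p = 0.985) and -0.29 ± 1.91 for the summed pair (edgeR adjusted p = 0.99). These values rest on single mice: leaving out Cre-positive 1 gave Saa1 -4.07, and leaving out Cre-positive 2 gave 0.52. Hepatocytes are the main known source of circulating SAA1 and SAA2, and albumin (Alb) was among the 7 of 10 hepatocyte markers without a row in the table used.

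Saa3, the amyloid gene expressed mainly outside the liver (ENSMUSG00000040026.8, chr7:46711998-46715700, minus strand), was present in every mouse and had the smallest fold range of CPM among the members. Lcn2 was close to it, with a 2.32-fold range. It stood at 31.4, 52.6 and 31.3 CPM in Cre-negative 1, 2 and 3 and at 52.1 and 25.03 CPM in Cre-positive 1 and 2. The 2 mice with Saa1 counts above 1 were also the 2 with the most Saa3, but the range was only 2.10-fold. Group means were 38.4 ± 12.3 CPM (SD, n = 3) and 38.5 ± 19.1 CPM (SD, n = 2), with a log2 fold change of 0.00 ± 0.39 (edgeR adjusted p = 1; 95% interval of the fold 0.529 to 1.89). Per kilobase of transcript Saa3 averaged 69.3 CPM, against 4.37 for Saa1 and 0.689 for Saa2. Adipocytes and macrophages can also make Saa3. The adipocyte marker Adipoq had between 0 and 1.35 CPM, and the 8 adipocyte markers with a row summed to 163, 78.2 and 149 CPM in the Cre-negative and 50.7 and 132 CPM in the Cre-positive mice. Lipe and Pck1, which other cells also express, made up most of that sum. Adipoq, Plin1, Cfd and Fabp4 were each highest in Cre-positive 1, at 1.35, 1.16, 3.29 and 2.13 CPM. Plin4, Cidec and Lipe went the other way and were lowest in Cre-positive 1, at 7.74, 4.26 and 19.0 CPM. Pck1 was highest in Cre-negative 1, at 72.1 CPM. The part of adipocytes in the Saa3 values was not tested.

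Lcn2, the siderophore-binding lipocalin (ENSMUSG00000026822.14, chr2:32384633-32388252, minus strand), was low throughout. It stood at 8.39, 7.60 and 3.75 CPM in Cre-negative 1, 2 and 3 and at 8.71 and 6.995 CPM in Cre-positive 1 and 2. Cre-negative 3 was lowest and the counting intervals of the other mice overlapped. The interval of Cre-negative 3, 2.38 to 5.62 CPM, also overlapped those of Cre-negative 2 and Cre-positive 2. The log2 fold change was 0.26 ± 0.42 (edgeR adjusted p = 0.977; 95% interval of the fold 0.605 to 2.38). Neutrophils carry lipocalin 2 in their granules. Of 14 neutrophil markers 3 had a row in the table, with sums of 6.23, 1.85 and 1.30 CPM in the Cre-negative and 2.71 and 1.24 CPM in the Cre-positive mice. S100a8 did not exceed 1.16 CPM and Mmp8 did not exceed 0.719 CPM. Mmp9 stood at 5.03 CPM in Cre-negative 1 and at no more than 1.35 CPM elsewhere. The part of neutrophils in the Lcn2 values was not tested.

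Pigr, the polymeric immunoglobulin receptor (ENSMUSG00000026417.13, chr1:130826684-130852249, plus strand), was abundant in all mice and lowest in Cre-negative 1. It stood at 700, 1649 and 2649 CPM in Cre-negative 1, 2 and 3 and at 2472 and 2280 CPM in Cre-positive 1 and 2. The Cre-positive mice lay between Cre-negative 2 and Cre-negative 3. The log2 fold change was 0.51 ± 0.51 (edgeR adjusted p = 0.977; 95% interval of the fold 0.619 to 3.29), and it was 0.17 without Cre-negative 1 and 1.05 without Cre-negative 3. Its cargo is IgA joined by the J chain. Igha, the IgA heavy chain gene of plasma cells, stood at 11.3, 19.3 and 66.5 CPM in Cre-negative 1, 2 and 3 and at 164 and 24.4 CPM in Cre-positive 1 and 2. Jchain had 6.23, 3.89 and 22.8 CPM in the Cre-negative and 179 and 13.4 CPM in the Cre-positive mice. Pigr and Igha were both lowest in Cre-negative 1. Igha and Jchain were highest in Cre-positive 1, whereas Pigr there lay below Cre-negative 3.

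Lypd8, the surface protein that binds flagella (ENSMUSG00000013643.13, chr11:58379043-58390728, plus strand), and Pigr had the highest levels of the members per kilobase of transcript, averaging 690.0 and 507 CPM. Lypd8 was above Pigr by this measure in 3 mice, and Pigr was above Lypd8 in Cre-negative 1 (182 against 177 CPM) and Cre-negative 3 (688 against 613 CPM). It stood at 193, 853 and 670 CPM in Cre-negative 1, 2 and 3 and at 1335 and 719 CPM in Cre-positive 1 and 2. Cre-negative 1 was lowest here too, and Cre-negative 2 lay above Cre-positive 2. The log2 fold change was 0.84 ± 0.59 (edgeR adjusted p = 0.977; 95% interval of the fold 0.680 to 4.74). Without Cre-positive 1 it was 0.35. Smooth muscle markers moved the other way in the mouse lowest in both genes: the 10 markers summed to 3898 CPM in Cre-negative 1 and to between 1275 and 1963 CPM in the other mice. The 15 epithelial markers summed to 3881 CPM in Cre-negative 1 and to between 4261 and 5189 CPM elsewhere. For every 1000 CPM of epithelial markers, Pigr still had 180 CPM in Cre-negative 1 against 384 to 622 CPM in the others, and Lypd8 49.8 against 139 to 313 CPM. Cre-negative 1 was still lowest after this division. With the epithelial score as a covariate the log2 fold change turned to -0.32 for Pigr and -0.25 for Lypd8. That score was higher in both Cre-positive mice than in any Cre-negative mouse, so this fit cannot cleanly separate it from genotype. The part of tissue makeup in these values was not tested. Deposited counts of both genes were not whole in 4 libraries.

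Slc6a14, the amino acid importer (ENSMUSG00000031089.7, chrX:21714896-21742355, plus strand), was nearly silent in 4 mice and abundant in the other. It had 9, 7 and 10 counts in Cre-negative 1, 2 and 3, 929 in Cre-positive 1 and 1 in Cre-positive 2. In CPM these were 2.16, 1.30 and 1.63, then 180 and 0.155. Cre-positive 1 was 83.4-fold above the highest of the other mice, and Cre-positive 2 was the lowest of all. The log2 fold change of 5.73 ± 1.90 did not pass the test (edgeR adjusted p = 0.977; exact permutation test over mice, two-sided p = 0.4, where 3 against 2 can reach 0.1 at best). The 95% interval of the fold ran from 2.07 to 1359, before any adjustment for the number of genes tested. With limma-voom the log2 fold change was 1.595, and with the regional marker score as a covariate it was 1.98. Without Cre-positive 1 it turned to -3.23 (edgeR adjusted p = 1). Without Cre-positive 2 it was 6.77 and passed (edgeR adjusted p = 0.00207), beside 0.374% of genes in that fit, in which the lone Cre-positive mouse is assumed to vary like the Cre-negative mice. Cre-positive 1 also stood apart in B cell genes, with 1145 CPM over 10 plasma and B cell markers against 171 to 352 CPM in the other mice. Of these sums, Xbp1 alone held 143, 316 and 233 CPM in Cre-negative 1, 2 and 3 and 300 and 268 CPM in Cre-positive 1 and 2. Xbp1 thus made up most of the sum in every mouse but Cre-positive 1. Cd79a, a part of the B cell receptor, had 9.29 CPM in Cre-positive 1 and 0 counts in the other 4. Follicle-associated epithelium, which covers lymphoid follicles, was examined with a list chosen after the values were seen, and 7 of its 8 markers had a row. They summed to 300 CPM in Cre-positive 1, of which Ubd held 98.9 and Marcksl1 82.8 CPM, and to between 101 and 141 CPM in the others. Spib, Ccl9 and Ccl20 were also highest in Cre-positive 1. Tnfaip2 was highest in Cre-negative 1, at 32.6 CPM, and Tnfrsf11a in Cre-positive 2, at 81.1 CPM. Gp2, a defining marker of M cells, was the marker without a row. The part of these cells in the Slc6a14 value was not tested.

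The members did not move as a block from mouse to mouse. Likeness of pattern was measured as the root mean square difference between 2 genes of their log2 CPM, each centred on its own mean over the 5 mice. Over the 36 pairs of the 9 members that passed the filter, Pigr and Lypd8 were most alike (0.46), then Lcn2 and Saa3 (0.47) and Duox2 and Duoxa2 (0.55). Duox2 and Pigr were 1.45 apart, since Cre-negative 3 was lowest for Duox2 and highest for Pigr. Slc6a14 was at least 2.48 from every other member. All genes here share the same 5 libraries and their depth, so these are descriptions. Genes that mark position along the intestine also differed between mice, although the tissue is labelled alike: Lct, the lactase gene of the proximal gut, had 259, 15.8 and 881 CPM in Cre-negative 1, 2 and 3 and 3.48 and 632 CPM in Cre-positive 1 and 2. Slc10a2, the bile acid transporter of the ileum, had 218, 376 and 6.52 CPM in the Cre-negative and 810 and 45.9 CPM in the Cre-positive mice. Cre-positive 1 and Cre-negative 2 had the most Slc10a2 and the least Lct, but not all markers followed this order. The proximal marker Slc40a1, an iron exporter, was highest in these same mice, at 234 and 96.7 CPM, and the distal markers Amn and Tcn2 were lowest in Cre-positive 1. Guca2b, also on the distal list, had the order of mice of Lct. It stood at 442, 246 and 713 CPM in Cre-negative 1, 2 and 3 and at 108 and 681 CPM in Cre-positive 1 and 2. A score was formed as the 12 genes of the distal list, Guca2b included, minus 10 proximal markers, in log2 CPM. This score was 2.11, 2.68 and -1.04 in Cre-negative 1, 2 and 3, compared with 4.47 and 1.203 in Cre-positive 1 and 2. The mice with the highest scores had the most Saa1, Saa2, Saa3, Nos2, Duoxa2 and Lypd8, and the mouse with the lowest score had the least Duox2, Duoxa2 and Lcn2. The part of position along the intestine in these values was not tested.

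**Figure D2:**
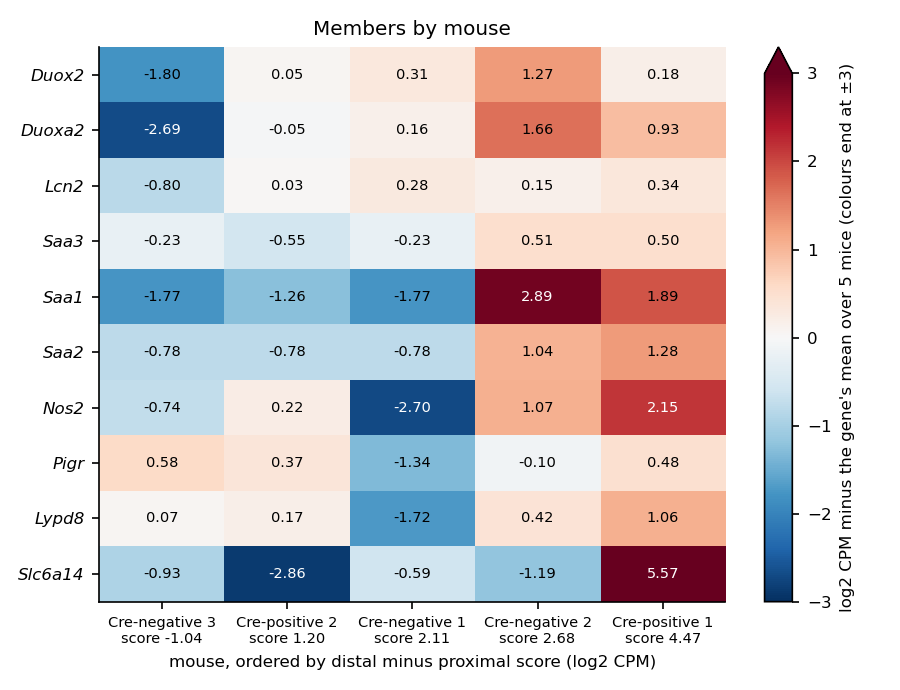
Log2 CPM of each member minus its mean over 5 mice (colour and printed number), with mice ordered from left to right by the distal minus proximal marker score. Cre-negative 3, at the proximal end, is lowest for Duox2 (-1.80) and Duoxa2 (-2.69), while Cre-negative 1 is lowest for Pigr (-1.34) and Lypd8 (-1.72).

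Among tested genes with an established name, those closest to Duox2 in pattern were Mx1, Chst4, Adgrl4, Sh3bp2 and Hs3st1, at 0.19 to 0.39. Mx1, an interferon-induced GTPase, stood at 2.88, 5.93 and 0.652 CPM in the Cre-negative and 3.29 and 2.33 CPM in the Cre-positive mice, so its pattern rests on few counts. Duoxa2 ranked 53 of 11506 genes by closeness to Duox2. The genes closest to Saa1 were Myot, Vmn1r198, Hk2, B3galt5 and Pik3ap1, at 0.56 to 0.78. Hk2, a hexokinase, stood at 8.39, 133 and 14.8 CPM in the Cre-negative and 159 and 28.6 CPM in the Cre-positive mice. Cre-negative 2 and Cre-positive 1 were high, as for Saa1, which follows from picking genes by their likeness to it. The genes closest to Pigr were Gen1, Ska3, Racgap1, Arhgef38 and Ndc80, at 0.07 to 0.14. Racgap1, needed for cytokinesis, stood at 5.51, 12.6 and 18.9 CPM in the Cre-negative and 20.5 and 15.1 CPM in the Cre-positive mice. The pattern of Slc6a14, examined after its values were seen, was closest to that of the B cell genes Ighm, Igkc, Pou2af1 and Ms4a1 and of the leukocyte gene Cd53, at 0.91 to 1.46.

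Of the 9 members tested, 6 had a positive and 3 a negative log2 fold change, and the median was 0.26 beside -0.04 over all genes tested. All 10 changed sign under at least 1 of the settings tried. Scaling by RLE, by upper quartiles or by totals moved the median of all genes by at most 0.03 on the log2 scale and turned no member. Duox2 had 0.51 without Cre-negative 2, and Duoxa2 had 1.19. In the fit without both Cre-negative 1 and Cre-positive 1, where 0.02% of genes were called, 0 members passed.

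**Figure D3:**
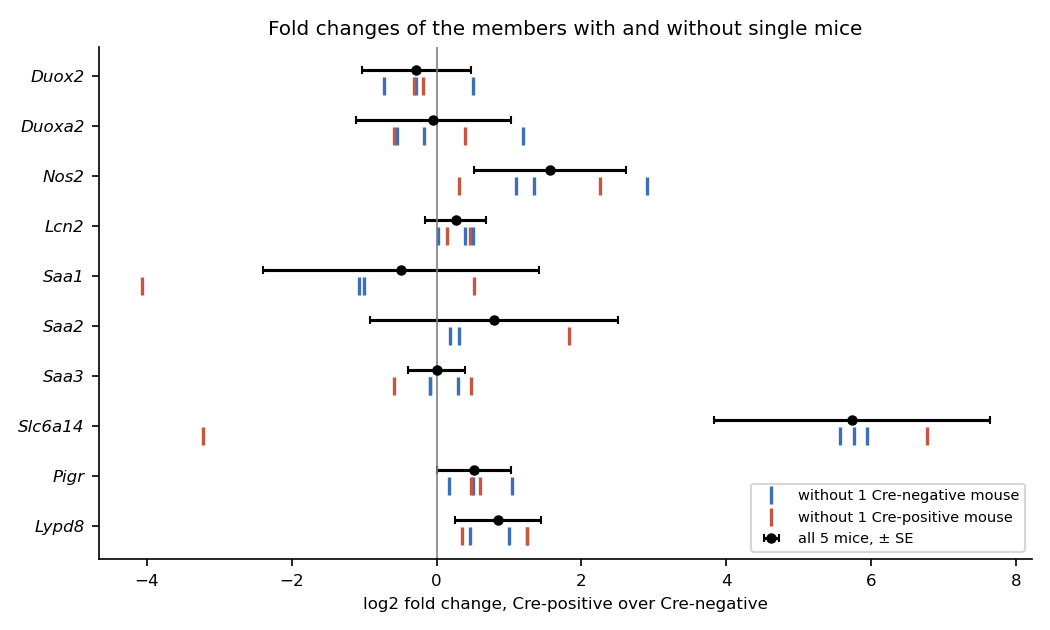
Log2 fold change, positive where Cre-positive mice were higher (horizontal axis), for each member with all 5 mice (black, ± SE) and without each Cre-negative (blue) or Cre-positive (red) mouse. Slc6a14 spans -3.23 to 6.77 and Saa1, in the 4 such fits with a value, -4.07 to 0.52, both ends set by leaving out a Cre-positive mouse. Saa1 has no value without Cre-negative 2, and Saa2 none without Cre-negative 2 or Cre-positive 1, since a group is then at 0.

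The signalling genes around the members did not pass the test either, with 0 of the tested genes higher and 0 lower in each of 5 lists (0% of all genes). Of the NADPH oxidase and nitric oxide list, 22 of 25 genes had a row and 16 were tested, 11 with a positive and 5 with a negative log2 fold change and a median of 0.37. Noxo1, an organizer of the colonic oxidase NOX1, averaged 8.99 ± 2.52 CPM (SD, n = 3) in the Cre-negative and 5.24 ± 0.289 CPM (SD, n = 2) in the Cre-positive mice. Cyba, the shared small subunit of NOX enzymes, averaged 5.83 ± 1.41 and 10.3 ± 4.63 CPM. Cybb, the phagocyte oxidase subunit, stood at 38.5 CPM in Cre-positive 1 and at 1.40 to 6.71 CPM in the other mice. Rac1, a GTPase that activates NOX enzymes, averaged 754 ± 75.1 and 997 ± 86.7 CPM. Noxo1 and Rac1 had groups that did not overlap, as did 18% of all genes. Of 27 tested genes for microbial sensing and NF-kB signalling, 14 were positive and 13 negative, with a median of 0.01. Ly96, the MD-2 partner of TLR4, averaged 5.33 ± 1.41 and 10.8 ± 2.03 CPM (edgeR unadjusted p = 0.0237, adjusted p = 0.977). The adaptor gene Tirap averaged 14.4 ± 3.39 and 24.8 ± 9.20 CPM, Tlr2 3.55 ± 0.981 and 7.999 ± 6.48 CPM and the NF-kB subunit gene Rela 11.4 ± 3.42 and 7.04 ± 1.47 CPM.

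Of 23 tested genes of interleukin 22, interleukin 17 and STAT3 signalling, 7 were positive and 16 negative, with a median of -0.15. Il22, Il17a, Il17f and Il23a, the cytokine genes themselves, had no row in the table used. Il22ra2, the soluble antagonist of interleukin 22, averaged 1.92 ± 1.04 CPM (SD, n = 3) in the Cre-negative and 8.39 ± 7.02 CPM (SD, n = 2) in the Cre-positive mice and was highest in Cre-positive 1, at 13.4 CPM. The stress-responsive transcription factor gene Cebpb averaged 12.2 ± 7.50 and 5.50 ± 2.07 CPM, and the oncostatin M receptor gene Osmr 43.2 ± 22.6 and 24.4 ± 6.32 CPM. Stat3 itself averaged 121 ± 18.5 and 121 ± 34.7 CPM and Il22ra1, the epithelial interleukin 22 receptor gene, 83.9 ± 9.56 and 82.2 ± 42.4 CPM; both were named after their values were seen.

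Of 20 tested genes for other secreted antimicrobial products, 10 were positive and 10 negative, with a median of -0.05. The goblet cell genes Tff3 and Zg16 averaged 15.7 ± 10.5 and 21.8 ± 20.7 CPM in the Cre-negative and 89.7 ± 48.2 and 145 ± 46.1 CPM in the Cre-positive mice. The neutrophil-attracting chemokine gene Cxcl1 averaged 13.7 ± 9.55 and 4.75 ± 2.32 CPM and the Paneth cell angiogenin gene Ang4 10.7 ± 2.13 and 6.65 ± 0.924 CPM. Reg3g, a lectin that kills Gram-positive bacteria, stood at 54.2, 3473 and 910 CPM in Cre-negative 1, 2 and 3 and at 6077 and 1228 CPM in Cre-positive 1 and 2, the same order of mice as for Nos2. Fut2, which fucosylates the epithelial surface in response to microbes, stood at 5.75, 76.2 and 0.978 CPM and at 21.3 and 2.18 CPM, with the most in Cre-negative 2 as for Saa1. Reg3g and Fut2 were named after their values were seen. Of 12 tested partners of serum amyloid A, siderophores and immunoglobulins, 6 were positive and 6 negative, with a median of -0.03. Besides Jchain, the cystine transporter gene Slc7a11 stood at 17.2 CPM in Cre-positive 1 and at 1.55 to 2.78 CPM elsewhere. Scarb1, which encodes a lipoprotein receptor that also binds serum amyloid A, averaged 2.49 ± 1.49 and 0.795 ± 0.245 CPM, and the endocytic receptor gene Lrp2 32.6 ± 28.1 and 14.0 ± 5.88 CPM.

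Marker genes showed how the tissue samples differed in makeup beside these values. All 15 epithelial markers had a row and were tested, and 0 passed. Of these, 14 had a positive and 1 a negative log2 fold change, beside 45.5% positive over all genes tested. The groups did not overlap for 4 of these 15, all higher in Cre-positive mice, beside 7.89% of all genes tested. The sums, 3881, 4295 and 4261 CPM against 4262 and 5189 CPM, overlapped (exact permutation test, two-sided p = 0.2). The epithelial score, which weights each marker equally, did not overlap and was higher in both Cre-positive mice. The 10 goblet cell markers summed to 583, 1003 and 1370 CPM in Cre-negative 1, 2 and 3 and to 5102 and 2290 CPM in Cre-positive 1 and 2, with groups that did not overlap (two-sided p = 0.1 by an exact permutation over mice, which can go no lower). The 10 smooth muscle markers (exact permutation p = 0.5) were highest in Cre-negative 1. The proximal markers summed to 1800 CPM in Cre-negative 1, 1373 in Cre-negative 2 and 3303 in Cre-negative 3, and to 854 and 2552 CPM in Cre-positive 1 and 2. The genes of the distal list, Guca2b included, summed to 4554, 2706 and 2547 CPM in the Cre-negative and to 3634 and 4401 CPM in the Cre-positive mice. Their sum and the score, which weights each gene equally, thus ordered the mice differently. Of the 11 marker lists and the follicle-associated list, the goblet cell list was the one whose sum did not overlap between genotypes. No member had groups that did not overlap.

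**Figure D4:**
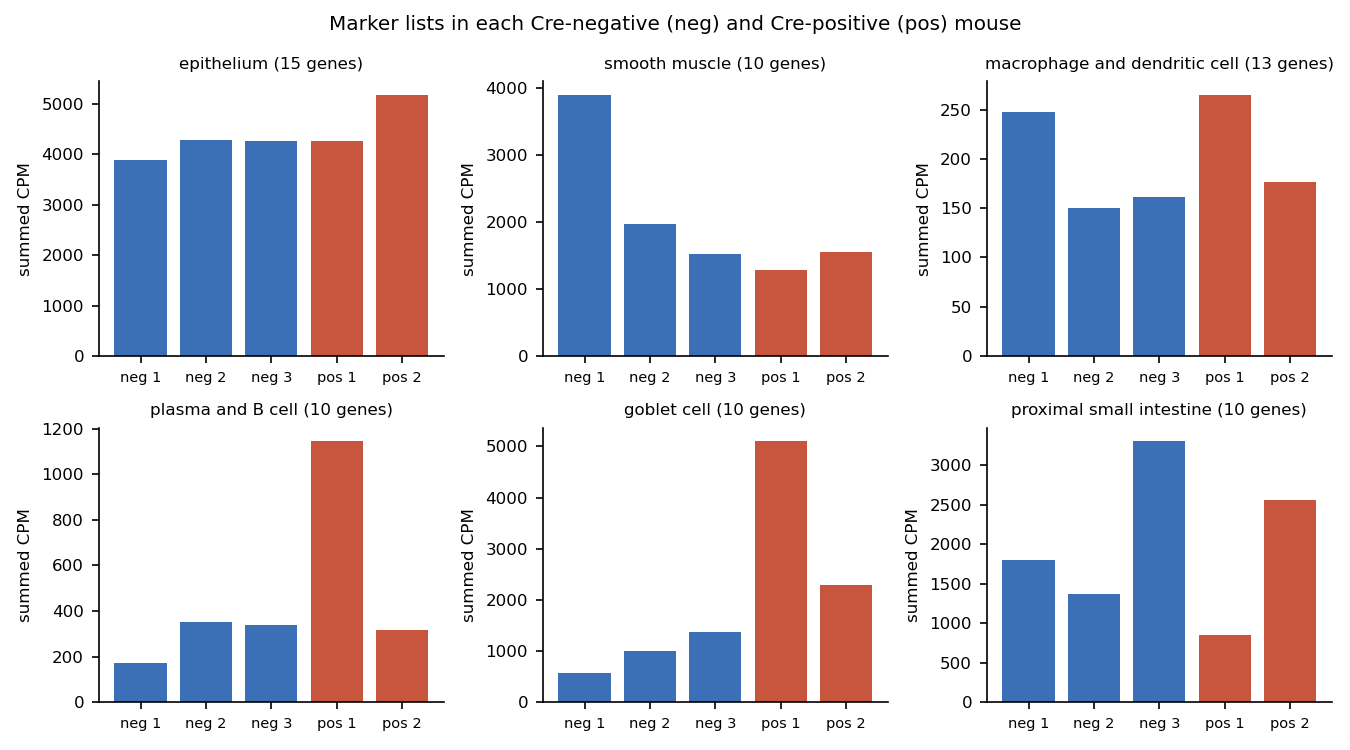
Summed CPM (vertical axes, linear from 0) of 6 marker lists in each Cre-negative (blue) and Cre-positive (red) mouse. Smooth muscle markers stand at 3898 CPM in Cre-negative 1, plasma and B cell markers at 1145 CPM in Cre-positive 1, and proximal markers at 3303 CPM in Cre-negative 3. Xbp1 makes up most of the plasma and B cell sum in every mouse but Cre-positive 1.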

How the data were processed

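RNA from the small intestine of 5 mice was sequenced as total RNA after depletion of ribosomal RNA, per the labels' protocols. The authors deposited estimated counts per gene symbol, 1 column per mouse. Partek and mm10 are named in the submitters' processing notes; the sources used here do not state which aligner, gene models, strand option or counting method were used. All values were rounded, since 19.6% to 21.7% of a library's values lay over 0.005 from a whole number. The lowest total of a gene in the table was 10 over the 5 mice. The replicate numbers follow record order and pair no mice. Each library came from its own mouse.

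Genes were tested with edgeR 4.0.16 (R 4.3.3): TMM scaling, filterByExpr with a minimum count of 10 (14352 genes kept, 4846 removed), robust quasi-likelihood fitting on genotype and Benjamini-Hochberg adjustment over all genes tested. The filter needs enough counts in 2 libraries, so a gene high in both Cre-positive mice only can pass. The SE was taken as log2 fold change over root F, and 95% intervals use the fit's degrees of freedom. The biological coefficient of variation was 33.1%. Patterns were compared on log2 CPM with a prior count of 2. Intervals on counts are exact Poisson, and a count of 0 was taken to allow 3 counts; both cover counting error only. The fits were tested on simulated data. Alternatives were other scalings, DESeq2 1.42.0, limma-voom 3.58.1, other filters, fitting without robust estimation, an adjusted p of 0.1, an epithelial or regional score as covariate, Saa1 and Saa2 summed, and leaving out each mouse. A fit without both Cre-negative 1 and Cre-positive 1 was added after seeing the data.

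The members and lists were chosen with earlier results of these data known. The genes named are the 10 members, the 4 genes of each pathway list with the smallest unadjusted p, and the 5 closest in pattern to Duox2, Saa1 and Pigr; 1 gene under this rule is not reported here, and others are marked as named after their values were seen or stand as markers of a cell type. Coordinates, exons and transcript lengths (the transcript with the longest coding part) were read from GENCODE M21 (GRCm38, the same assembly as mm10), and promoters from RefSeq on GRCm38.p6, where 9 of 10 members matched.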

Additional observations from a re-analysis of the deposited data

How the results depend on the processing

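Across 18 alternative settings, 0 members were called in 17 and 1 in the fit without Cre-positive 2, where Slc6a14 passed; over single mice left out, the count of members called ran from 0 to 1 and that of genes called from 0 to 58. DESeq2 called 24 genes and the fit without both Cre-negative 1 and Cre-positive 1, added after seeing the data, called 3, with 0 members in either. Fold changes turned with limma-voom for Duox2 (0.18), Duoxa2 (0.77), Saa1 (0.94) and Saa3 (-0.064). With the epithelial score, which did not overlap between genotypes, as a covariate they turned for Pigr (-0.32), Lypd8 (-0.25), Saa2 (-1.24) and Saa3 (-0.35). With the regional score they turned for Lcn2 (-0.017), Saa2 (-2.44) and Saa3 (-0.40). Without both Cre-negative 1 and Cre-positive 1 they turned for Nos2 (-0.20), Lypd8 (-0.070), Saa3 (-0.73) and Slc6a14 (-3.07). Over single mice left out, log2 fold changes ran from -0.72 to 0.51 for Duox2 and -0.58 to 1.19 for Duoxa2. The range was -0.59 to 0.47 for Saa3, -3.23 to 6.77 for Slc6a14 and, in the 4 fits with a value, -4.07 to 0.52 for Saa1. Fold changes kept their sign for Nos2 (0.31 to 2.90), Lcn2 (0.02 to 0.50), Pigr (0.17 to 1.05) and Lypd8 (0.35 to 1.25). For Saa2 they ran from 0.19 to 1.83 in the 3 fits with a value. Without Cre-positive 1, Saa2 had 0, 5 and 0 counts in the Cre-negative mice and 0 in Cre-positive 2, which is the other direction. The causes were not tested. Saa1 gave no value without Cre-negative 2, and Saa2 none without Cre-negative 2 or Cre-positive 1, since a group was then at 0; neither passed the filter of 5 CPM in 2 libraries, nor did Slc6a14. No paired analysis was possible because each mouse has its own number in the labels. Few mice and low counts of Saa1, Saa2 and Lcn2 limit what these data can resolve.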

Other observations

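The pattern of Nos2 over the 5 mice, examined after its values were seen, was closest to those of Ifit1bl1, Prss27, Cd38, Hk2 and Cxcl9, at root mean square differences of 0.33 to 0.62 in centred log2 CPM. Ifit1bl1, of an interferon-induced family, stood at 22.3, 157 and 67.9 CPM in Cre-negative 1, 2 and 3 and at 449 and 143 CPM in Cre-positive 1 and 2. Cd38, an enzyme that consumes NAD, stood at 94.4, 952 and 186 CPM and at 937 and 342 CPM. Cxcl9, a chemokine induced by interferon gamma, had 0, 1.85 and 1.14 CPM and 12.4 and 0.933 CPM. Reg3b, a lectin related to Reg3g, stood at 62.5, 2067 and 679 CPM and at 7823 and 1114 CPM. Cre-negative 1 was lowest for each of these genes, and Cre-negative 2 and Cre-positive 1 were the highest 2 mice. Apart from Reg3b, the genes were picked for likeness to Nos2, so this shared order follows from the choice.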
